A study of Rattus norvegicus with 17 samples.

Results

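The proteasome is described here through the rat genes whose array annotation carries a symbol of the Psma to Psmg series, that is Psm, a letter from a to g and a digit. Of 50 such symbols, 46 had at least 1 probe set naming that gene alone, and 45 of these lay above the level filter, out of 9736 genes measured in this way. The brightest such probe set stood for each gene. Psma3l, Psmb6, Psmb6l1 and Psme3 were named only on probe sets shared with other genes and are not reported, so the constitutive catalytic subunit Psmb6 and the activator Psme3 have no value here. The remaining gene, Psmc3ip, whose product is named for binding a subunit and is not part of the particle, had group means of 3.45 to 3.72 log2 units and was not tested. Psme3ip1, which is among the 45, is likewise an interacting protein named after a subunit.

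Liver RNA from 17 rats (Rattus norvegicus) was hybridized to 1 oligonucleotide array per rat. Sham animals (6 rats) had only their abdomen opened and were infused with saline. In the group called ligated saline (6 rats) the bile duct was tied, and the infusion was again saline. In the group called ligated ghrelin (5 rats) the duct was tied and the infusion was recombinant ghrelin, the stomach hormone that acts on the growth hormone secretagogue receptor, at 10 µg per kg per day. Infusion was by a subcutaneous osmotic minipump in all 3 groups. Surgery took place in week 7 and livers were collected in week 9, after 2 weeks of ligation. The labels state neither strain nor sex. No sham rats received ghrelin, so the ghrelin comparison holds only for ligated liver. Ligation blocks bile flow and leads to cholestasis, bile duct proliferation, inflammation and scarring.

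The proteasome degrades proteins tagged with ubiquitin. Its barrel, the 20S core, is built of alpha rings (Psma genes) around beta rings (Psmb genes), and 3 of the beta subunits cut peptide bonds. Under interferon gamma, or in cells of the immune system, the constitutive catalytic subunits Psmb5, Psmb6 and Psmb7 are replaced in newly made cores by Psmb8, Psmb9 and Psmb10, respectively, which gives the immunoproteasome and favours peptides that fit MHC class I molecules. The core is capped by the 19S regulatory particle (Psmc ATPases and most Psmd genes), which recognizes ubiquitin and unfolds substrates, or by activators such as PA28 (Psme1 and Psme2), which is also induced by interferon gamma. Dedicated chaperones assemble both parts and leave the finished particle.

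Promoter sequences of the genes on which the immunoproteasome results turn are shown first, because the immune genes are textbook targets of interferon regulatory factors and the constitutive genes of the bZIP factors of the Nfe2l family. RefSeq windows of the assembly GRCr8, each 300 bases around the annotated start, were matched for 42 of the 46 genes. The stretches below run 5′ to 3′ on the gene's own strand, from 90 bases before the start through the first 6 transcribed bases. Capitals mark matches, on either strand, to a pair of GAAA with 2 bases of any kind between them (the interferon regulatory factor element) or to TGACNNNGC (the antioxidant response element, the core of Nfe2l binding sites).
Psmb9, chr20:4668910-4669005, plus strand: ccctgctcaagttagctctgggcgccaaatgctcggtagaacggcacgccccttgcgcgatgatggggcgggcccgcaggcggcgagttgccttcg
Psmb8, chr20:4657026-4657121, minus strand: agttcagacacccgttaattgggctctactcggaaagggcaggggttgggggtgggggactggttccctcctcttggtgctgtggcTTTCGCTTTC
Psmb10, chr19:50743287-50743382, minus strand: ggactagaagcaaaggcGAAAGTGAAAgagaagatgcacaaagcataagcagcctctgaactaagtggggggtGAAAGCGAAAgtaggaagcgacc
Psme2, chr15:33052746-33052841, minus strand: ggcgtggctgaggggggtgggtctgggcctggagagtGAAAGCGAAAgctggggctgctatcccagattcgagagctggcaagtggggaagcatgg
Psme1, chr15:33038881-33038976, plus strand: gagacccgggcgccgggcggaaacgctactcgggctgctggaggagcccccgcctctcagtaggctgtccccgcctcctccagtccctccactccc
Psmb5, chr15:32047374-32047469, minus strand: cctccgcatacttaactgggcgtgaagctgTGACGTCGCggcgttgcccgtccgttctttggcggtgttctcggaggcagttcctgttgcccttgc
Psmb7, chr3:42827465-42827560, minus strand: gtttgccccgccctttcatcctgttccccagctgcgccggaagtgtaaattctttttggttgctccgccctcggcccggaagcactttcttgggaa

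The interferon regulatory factor element occurred in 7 of the 42 windows (16.7%: Psma4, Psmb3, Psmb8, Psmb10, Psmd7, Psme2 and Psmg4), against 3.92% of all 33469 RefSeq windows of that length. Psmb10 held it at 2 places, 73 and 17 bases before its start. TGACNNNGC occurred in 7 of 42 (16.7%: Psma3, Psmb2, Psmb5, Psmd1, Psmd3, Psmd9 and Psme4), against 12.1% of all windows. The window of Psmb9 held neither. Psmb9 and Tap1, which encodes a chain of the peptide transporter for MHC class I, start 457 bases apart and run in opposite directions on chromosome 20. The window of Tap1 held the interferon regulatory factor element between these starts, 336 to 345 bases before the start of Psmb9 and so outside its window.

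These patterns were picked for display after 10 had been counted, all on both strands. The shorter AANNGAAA, which lies within every full element, was in 17 windows of the 42 (40.5%, all windows 26.4%). TTCNNNGAA, the gamma-activated site, was in 4 (9.52%, all windows 8.87%) and its stricter form TTCCNGGAA in 0 (all windows 1.27%). GGGANNTCC, an NF-kappaB site, was in 2 (4.76%, all windows 4.34%). Its longer form, GGGA, any base and TTTCC, was in 0 (all windows 0.362%). CCAAT was in 22 (52.4%, all windows 37.5%) and the ETS site CCGGAAG in 15 (35.7%, all windows 8.75%). The GC box GGGCGG was in 29 (69%, all windows 33.1%). A match is a run of letters and was not tested as a binding site.

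Arrays of 1 group correlated at 0.965 to 0.985 over all kept probe sets, and no 2 arrays were identical. The median intensity of all probe sets was 14.2 to 14.7 on sham arrays and 15.4 to 17.5 on ligated arrays, without overlap. Setting the array medians equal moved the median ligation change of all genes by -0.19 log2 units, and quantile normalization moved it by -0.12. For ligation, calls that depend on this are named or counted beside the genes. The difference between the 3′ and 5′ probe sets of GAPDH, a sign of RNA degradation, was 0.022 to 0.27 log2 units in sham, 0.037 to 0.20 in ligated saline and 0.10 to 0.62 in ligated ghrelin. The same difference for beta-actin was 1.86 to 2.37 in sham, 1.75 to 2.05 in ligated saline and 1.88 to 2.62 in ligated ghrelin. For both genes the highest value belonged to the ligated ghrelin 3 rat. The labels give no batch, and nothing in them says whether the rats were operated on together.

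The 45 proteasome genes varied less between rats of 1 group than genes at large, but they were also brighter. Their median level was 10.82 log2 units, against 8.02 over all genes, and the SD was not compared at matched levels. Their median SD within a group was 0.0986 log2 units in sham, 0.123 in ligated saline and 0.109 in ligated ghrelin, against 0.196, 0.198 and 0.191 over all 9736 genes. The most variable members were immune subunits: Psmb10 in sham (SD 0.275) and Psmb9 in ligated saline (0.285) and ligated ghrelin (0.310).

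With ligation the 3 immune catalytic subunits and both PA28 genes rose, and 4 of 7 assembly chaperones and the inhibitor Psmf1 fell. The mean of the 13 constitutive core genes lay 0.077 ± 0.078 (SD, n = 6) log2 units from its sham mean in ligated saline rats, and that of the 17 genes of the 19S particle -0.034 ± 0.078. Of the 45 genes, 13 rose and 12 fell at an adjusted p under 0.05 (limma, Benjamini-Hochberg over 15965 probe sets), and 20 were not called. Calls made up 55.6% of the 45 genes and 64.7% of all genes. Of all genes 37.5% rose and 27.2% fell. The groups did not overlap for 13 genes, or 28.9%, against 44.5% of all genes. The median change was 0.02 log2 units (all genes 0.07). Set against the median of all genes it was -0.052 as deposited and 0.095 after quantile normalization. By their shares of calls, the 45 genes as a whole were near or under the background, and the results below are about their roles.

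**Figure D1:**
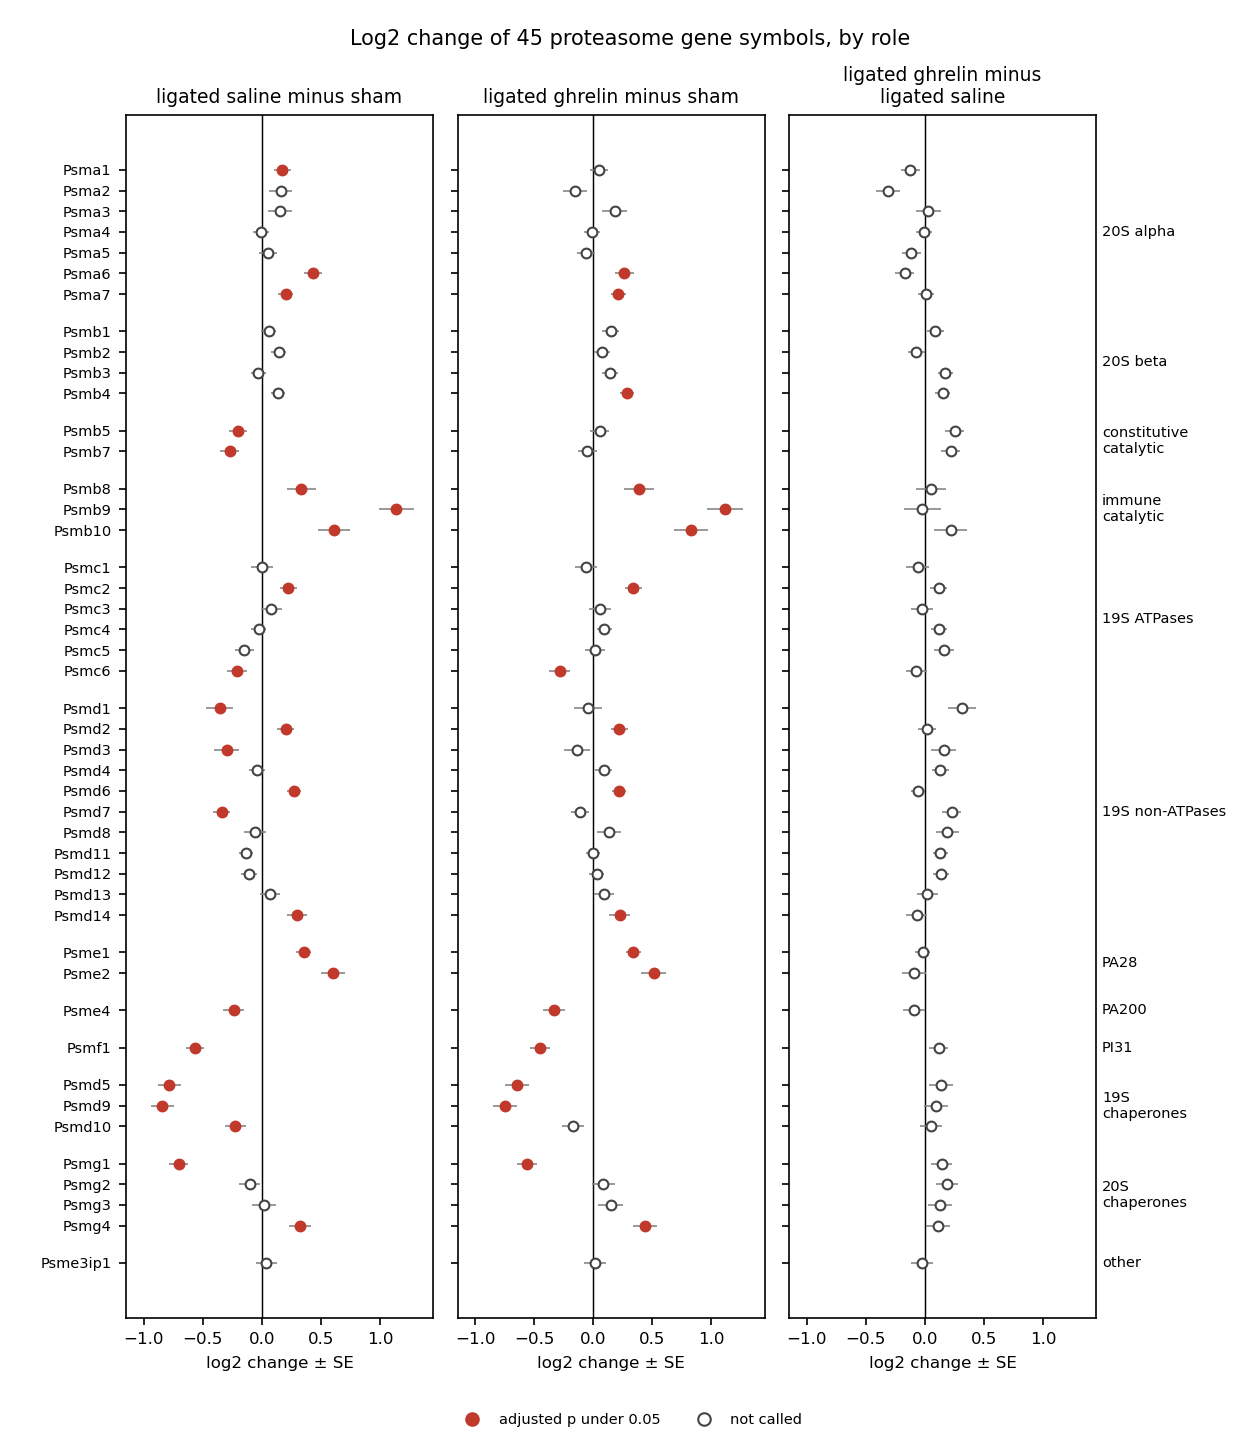
Log2 change ± SE (horizontal axis) of the 45 proteasome genes (vertical axis, by role) in ligated saline minus sham, ligated ghrelin minus sham and ligated ghrelin minus ligated saline; filled points passed an adjusted p under 0.05 in limma. Psmb9 is farthest right at 1.14 and 1.11 in the comparisons with sham, Psmd9 farthest left at -0.84 and -0.75, and no point is filled in the comparison of the ligated groups. The first and second panels share the sham rats.

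All 3 immune catalytic subunits rose with ligation. Psmb9 encodes the immune subunit that takes the place of Psmb6. Its log2 level was 10.73, 10.83 and 11.17 (lowest, median, highest) in sham and 11.68, 12.00 and 12.50 in ligated saline. Every ligated rat lay above every sham rat. The change was 1.14 ± 0.15 (SE), or 2.20-fold, with an adjusted p of 5.49e-06 in limma.

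Psmb10 replaces Psmb7. Its level was 8.99, 9.11 and 9.61 in sham and 9.42, 9.86 and 10.17 in ligated saline. The ranges overlapped, although all 6 ligated rats lay above the sham mean. The change was 0.61 ± 0.14, or 1.53-fold (limma adjusted p 0.000908). Psmb8 replaces Psmb5 and moved least. Its level was 11.18, 11.52 and 11.68 in sham and 11.59, 11.77 and 12.17 in ligated saline, with overlap between the highest sham and the lowest ligated rats. The change was 0.34 ± 0.12, or 1.26-fold (limma adjusted p 0.0248).

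The calls of Psmb9 and Psmb10 held under every alternative run, including each rat left out. That of Psmb8 was lost with array medians set equal (change 0.15, limma adjusted p 0.314). It was also lost without the sham 4 rat (0.27, adjusted p 0.0620), without ligated saline 2 (0.27, 0.0632) and without ligated saline 6 (0.29, 0.0574).

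The mean of the 3 immune subunits, set against the sham mean, was -0.23 to 0.20 log2 units in sham rats and 0.37 to 1.03 in ligated saline rats. White blood cells express the immunoproteasome, and their markers moved in the same samples. In bulk liver, more cells of a type and more RNA per cell cannot be told apart. Of 18 leukocyte markers on the array 12 were above the filter, and 9 of these rose and 2 fell with ligation. Of all genes 37.5% rose and 27.2% fell. The summed intensity of the 18 markers was 1405 to 2968 in sham and 4126 to 7741 in ligated saline. The T cell, NK cell and B cell markers Cd3d, Cd3g, Cd8a, Nkg7, Cd79b and Ms4a1 were below the filter. All 11 macrophage markers rose, with sums of 12305 to 22926 in sham and 34870 to 50232 in ligated saline. Of single markers, Ptprc, the pan-leukocyte phosphatase, rose by 1.60 ± 0.20, Cd53 by 1.79 ± 0.20, Coro1a by 2.11 ± 0.24, and the complement genes C1qa and C1qb of macrophages by 1.26 ± 0.14 and 1.505 ± 0.16. Apart from Ptprc, the single markers named were those with the lowest p, and the 2 leukocyte markers that fell are not among them. The part of leukocytes and macrophages in the rise of the immune subunits was not tested.

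**Figure D2:**
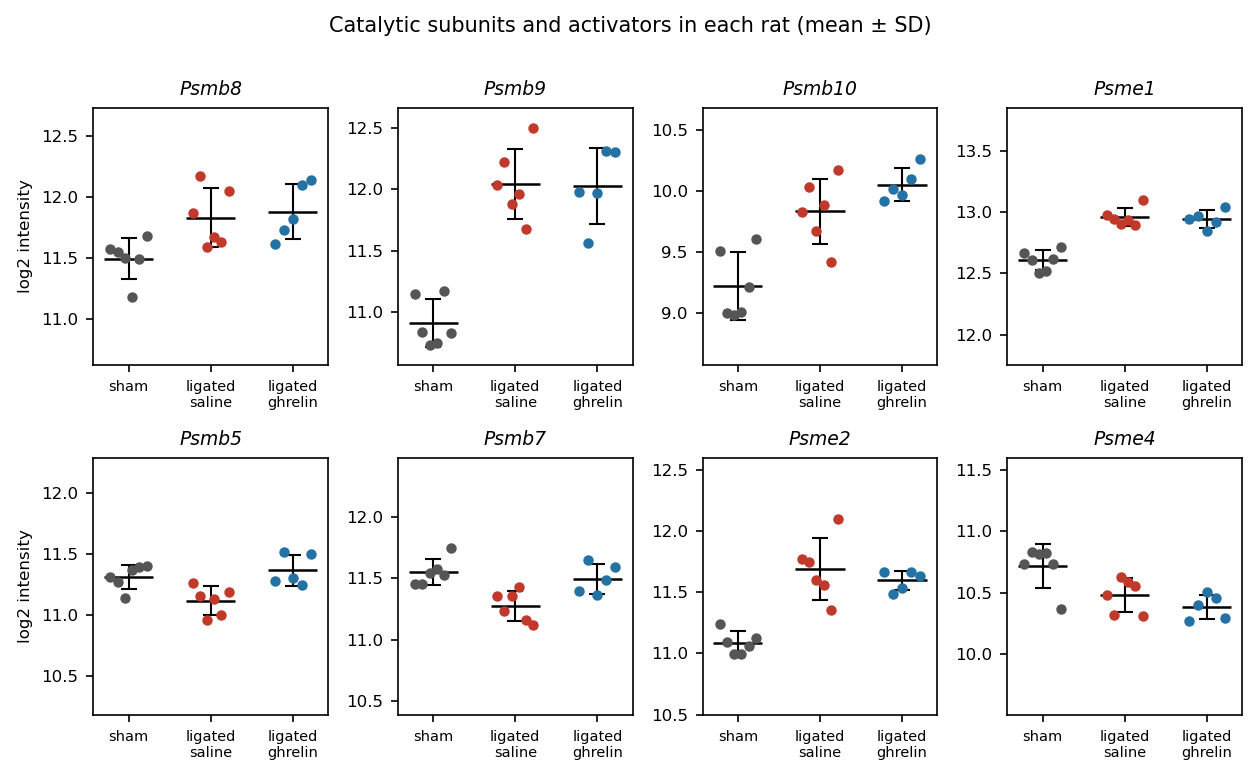
Log2 intensity (vertical axis; each panel spans the same number of log2 units) of 8 catalytic and activator genes in each rat of the 3 groups (horizontal axis); lines and bars are mean ± SD of 6, 6 and 5 rats. Psmb9, Psme1 and Psme2 of all ligated rats lie above all sham rats, and Psmb5 and Psmb7 are lowest in ligated saline.

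The constitutive catalytic subunits moved the other way in ligated saline rats. Psmb5 carries the chymotrypsin-like activity. Its level was 11.14, 11.34 and 11.40 in sham and 10.96, 11.14 and 11.26 in ligated saline, and the ranges overlapped. It fell by 0.20 on the log2 scale (SE 0.076, limma adjusted p 0.0322). Psmb7 carries the trypsin-like activity. Its level was 11.45, 11.54 and 11.75 in sham and 11.12, 11.30 and 11.43 in ligated saline, without overlap. It fell by 0.27 on the log2 scale (SE 0.077, limma adjusted p 0.00569).

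Both falls depended on the scaling. After quantile normalization Psmb5 changed by -0.10 (limma adjusted p 0.234) and Psmb7 by -0.17 (0.0609), and neither was called. With array medians set equal both falls were larger and called, at -0.39 for Psmb5 (limma adjusted p 0.000427) and -0.46 for Psmb7 (7.79e-05). The Psmb5 call was also lost when any of sham 4, 5 or 6 or ligated saline 3 or 5 was left out, with changes of -0.19 to -0.17 and adjusted p of 0.0573 to 0.0794.

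A difference between 2 genes within 1 array does not depend on the scaling of that array's level as a whole. Psmb8 minus Psmb5 was -0.19 to 0.36 log2 units in sham and 0.54 to 1.02 in ligated saline, so all 6 ligated rats lay above all sham rats. The difference rose by 0.53 log2 units (exact two-sided permutation p = 0.00216, the smallest that 6 against 6 rats allow, Benjamini-Hochberg adjusted p 0.00433 over 6 tests). Psmb10 minus Psmb7 was -2.57 to -1.94 in sham and -1.74 to -0.95 in ligated saline, again without overlap. It rose by 0.88 (exact permutation p = 0.00216, adjusted p 0.00433). The offset between 2 probe sets says nothing of the proportion of the 2 proteins, so only its change is read. Psmb9 against Psmb6 could not be formed, since no probe set named Psmb6 alone.

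**Figure D3:**
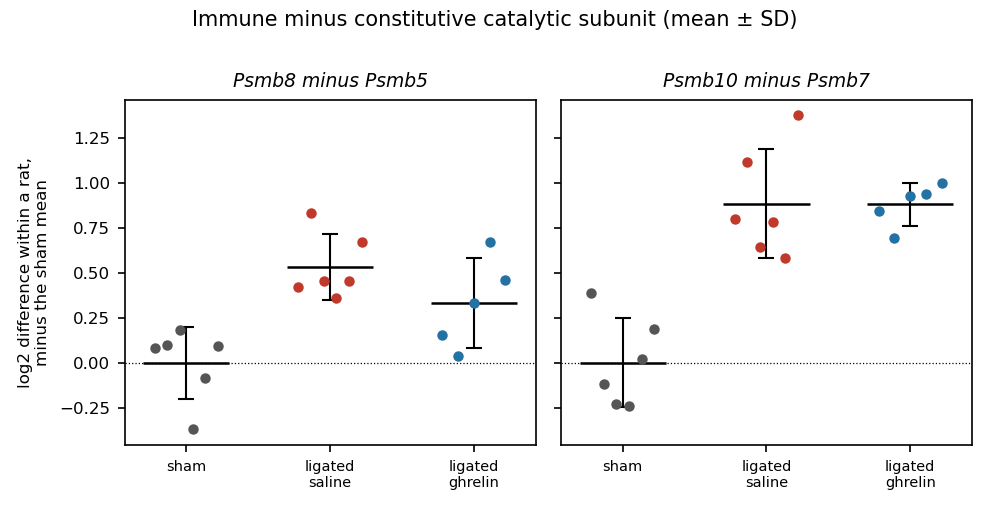
Difference in log2 intensity between an immune subunit and the constitutive subunit it replaces, within each rat and minus the sham mean (vertical axis), for the 3 groups (horizontal axis); lines and bars are mean ± SD. All 6 ligated saline rats lie above all sham rats in both panels, and the ligated ghrelin rats do so for Psmb10 minus Psmb7 only.

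Of the caps other than 19S, PA28 rose and PA200 fell. Psme1, the alpha subunit of PA28, was at 12.50, 12.62 and 12.71 in sham and 12.90, 12.94 and 13.10 in ligated saline. It rose by 0.35 ± 0.061 (1.28-fold, limma adjusted p 9.62e-05). Psme2, the beta subunit, was at 10.99, 11.08 and 11.24 in sham and 11.35, 11.67 and 12.10 in ligated saline. It rose by 0.60 ± 0.10 (1.52-fold, limma adjusted p 6.32e-05). Neither overlapped between the groups, and both calls held under every alternative. The mean of Psme1 and Psme2 minus the mean of the 6 Psmc ATPases, set against sham, was -0.23 to 0.13 in sham and 0.26 to 0.85 in ligated saline, so the activator rose against the ATPases of the competing cap in each ligated rat.

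Psme4 encodes PA200, a nuclear activator. Its level was 10.37, 10.78 and 10.83 in sham and 10.31, 10.52 and 10.63 in ligated saline. It fell by 0.24 on the log2 scale (SE 0.090, limma adjusted p 0.0295). The sham 6 rat, at 10.37, lay inside the ligated range. The call was lost without sham 2, 3 or 4 or ligated saline 2 or 6, with changes of -0.22 to -0.20 and adjusted p of 0.0592 to 0.0687. Psmf1 encodes PI31, named as an inhibitor of the core. Its level was 10.68, 10.81 and 10.92 in sham and 10.13, 10.21 and 10.50 in ligated saline, without overlap. It fell by 0.57 on the log2 scale (SE 0.078, limma adjusted p 9.02e-06).

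Of the 13 constitutive core genes, 3 rose, 2 fell (Psmb5 and Psmb7, above) and 8 were not called. Calls made up 38.5% of the 13 genes, under the 64.7% of all genes. The genes that rose were all of the alpha ring, whose subunits gate the pore. Psma6 was at 12.65, 12.71 and 12.82 in sham and 12.97, 13.19 and 13.31 in ligated saline, without overlap, and rose by 0.43 ± 0.077 (limma adjusted p 0.000132). Psma7 rose by 0.20 ± 0.062 and Psma1 by 0.17 ± 0.073 (limma adjusted p 0.0499). With array medians set equal only Psma6 of these was still called, and Psma1 turned to -0.02. The Psma1 call was also lost without any of sham 2, 4, 5 or 6 or ligated saline 3, 4, 5 or 6, with changes of 0.13 to 0.18, and when only the groups compared were fitted (adjusted p 0.0600). None of the 4 structural beta genes Psmb1 to Psmb4 was called, with changes of -0.03 to 0.14. Quantile normalization called 3 of them higher. With it and other settings, Psmb4 was called higher in 7 of 19 alternatives and Psmb2 in 5 of 19. With array medians set equal Psmb3 was called lower (-0.22, limma adjusted p 0.0096), as was the alpha gene Psma4 (-0.20, 0.0200). Psma2 was called higher after quantile normalization (0.28, limma adjusted p 0.0194).

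The 19S particle gave calls in both directions. Of its 17 genes, 4 rose, 4 fell and 9 were not called, with a median change of -0.04. Calls made up 47.1% of the 17 genes, under the 64.7% of all genes. Among the 6 ATPases, which form the unfolding ring, Psmc2 rose by 0.22 ± 0.070 and Psmc6 fell by 0.21 on the log2 scale, and the other 4 changed by -0.15 to 0.08 without a call. The Psmc6 call was lost after quantile normalization (-0.11, limma adjusted p 0.280) and without sham 1, 3 or 6 or ligated saline 2, 4, 5 or 6.

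Psmd14, the deubiquitinase that removes the ubiquitin chain from a substrate, rose by 0.30 ± 0.084. Psmd7, its partner subunit, was at 10.44, 10.51 and 10.59 in sham and 9.92, 10.18 and 10.36 in ligated saline, without overlap. It fell by 0.34 on the log2 scale (SE 0.073, limma adjusted p 0.000738). The large scaffold subunits Psmd1 and Psmd2 parted as well. Psmd1 was at 9.13, 9.32 and 9.75 in sham and 8.81, 9.05 and 9.11 in ligated saline and fell by 0.36 on the log2 scale (SE 0.11, limma adjusted p 0.0128), while Psmd2 rose by 0.20 ± 0.071. Psmd6 rose by 0.27 ± 0.059 and Psmd3 fell by 0.30 on the log2 scale. The Psmd2 call was lost without sham 6 or ligated saline 3 (adjusted p 0.0506 and 0.0545) and that of Psmd3 without sham 4 (0.0502). With array medians set equal no 19S gene was called higher and 10 were called lower, and after quantile normalization 4 were higher and 3 lower.

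Over the brightest probe sets of the 45 genes, the largest falls were those of Psmd9 and Psmd5, which are chaperones that assemble the 19S base. Psmd9 was at 8.95, 9.15 and 9.45 in sham and 8.14, 8.34 and 8.53 in ligated saline. It fell by 0.84 on the log2 scale (SE 0.097), to 0.558 times the sham level (limma adjusted p 1.48e-06). Psmd5 was at 9.62, 9.88 and 10.09 in sham and 8.86, 9.07 and 9.24 in ligated saline, and fell by 0.78 on the log2 scale (SE 0.097, limma adjusted p 3.14e-06). For both genes every ligated rat lay below every sham rat. Psmd10, also known as gankyrin, fell by 0.22 on the log2 scale (SE 0.086, limma adjusted p 0.0329), with overlap. Its call was lost without sham 1, 2 or 6 or ligated saline 2, 3 or 5, and when only the groups compared were fitted (adjusted p 0.0546).

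The chaperones of the 20S core did not move together. Psmg1 was at 10.15, 10.23 and 10.42 in sham and 9.40, 9.52 and 9.74 in ligated saline, without overlap, and fell by 0.70 on the log2 scale (SE 0.083, limma adjusted p 1.82e-06). Psmg2, with which it forms a dimer, changed by -0.10 ± 0.092 and was called only after rescaling (quantile -0.22, medians equal -0.29). In the other pair Psmg4 rose by 0.33 ± 0.094 (limma adjusted p 0.00643), a call lost with array medians set equal, and Psmg3 changed by 0.02 ± 0.099. The falls of Psmd5, Psmd9, Psmg1 and Psmf1 held under every alternative run.

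**Figure D4:**
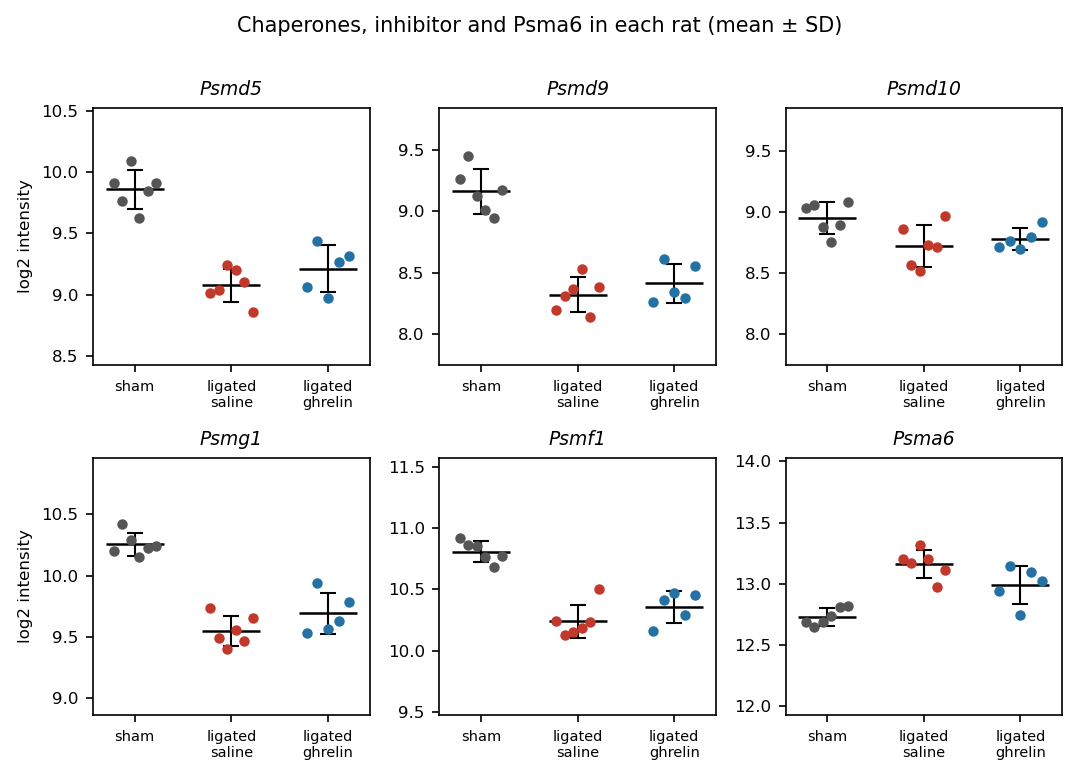
Log2 intensity (vertical axis) of 3 chaperones of the 19S base (Psmd5, Psmd9, Psmd10), the core chaperone Psmg1, the inhibitor Psmf1 and the alpha subunit Psma6 in each rat of the 3 groups (horizontal axis); lines and bars are mean ± SD. Psmd5, Psmd9, Psmg1 and Psmf1 of all ligated rats lie below all sham rats.

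Several genes had further probe sets whose values differed from the brightest. Psmc6 changed by -0.21, -0.51 and -0.82 with ligation on its 3 probe sets, all called. Psmd7 changed by -0.34 and -0.67. Psmd11 changed by -0.13 (limma adjusted p 0.0547, not called) on the brightest and by -0.48 on another probe set, which was called. Psme4 changed by -0.24, -0.44 and -0.20, and Psmd14 by 0.30 and 0.14, the last not called. With ligation the direction was the same within each of these genes, and the size was not. With ghrelin the probe sets of 3 of them parted. Psmd11 rose by 0.48 on the less bright probe set (limma adjusted p 0.0311, called) and changed by 0.13 on the brightest. Psme4 changed by -0.10, -0.36 (adjusted p 0.0557) and 0.12, and Psmc6 by -0.07, 0.07 and 0.57 (0.0909), none of them called.

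Genes that serve the proteasome without a symbol of the series were given by a list of 17 above the filter. Of these, 4 rose and 6 fell with ligation, where 37.5% of all genes rose and 27.2% fell. Nfe2l1, the factor that induces proteasome genes when the particle is short, rose by 0.60 ± 0.13 (limma adjusted p 0.00101), a call lost when all its probe sets were averaged (0.22). Its relative Nfe2l2 rose by 0.95 ± 0.19. Ddi2, the protease that releases Nfe2l1 from the endoplasmic reticulum membrane, fell by 1.19 on the log2 scale (SE 0.12, limma adjusted p 3.76e-07). The deubiquitinase Uchl5 fell by 0.50 on the log2 scale (SE 0.073) and the ubiquitin receptor Adrm1, to which it binds, by 0.85 (SE 0.16, limma adjusted p 0.000204). Pomp, the chaperone that completes the core, changed by 0.01 ± 0.076 and was not called.

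Of 17 genes of MHC class I antigen processing, which serve the peptide route to the cell surface, 7 rose, 2 fell and 8 were not called. After quantile normalization 6 rose and 1 fell. The share that rose was near the 37.5% of all genes, so the list as a whole did not stand out. Tap1, a transporter gene and the neighbour of Psmb9, was at 7.06, 7.65 and 8.09 in sham and 8.16, 8.67 and 9.29 in ligated saline, a change of 1.11 ± 0.20 without overlap (limma adjusted p 0.000128). Tap2 rose by 0.75 ± 0.23 (adjusted p 0.0101), a call lost after quantile normalization (0.55, 0.0555). Erap1, which trims peptides, rose by 0.73 ± 0.11, and the class I gene RT1-M3-1 by 2.48 ± 0.22. B2m, the light chain, rose by 0.18 ± 0.054 (adjusted p 0.00800), but was at -0.01 with array medians set equal. Probe sets of other RT1 class I genes varied widely between rats of 1 group, with SE of up to 1.94 log2 units for RT1-T24-4.

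Of 14 interferon gamma genes above the filter, 9 rose and 0 fell. The receptor chains Ifngr1 and Ifngr2 rose by 1.41 ± 0.11 and 1.40 ± 0.096 (limma adjusted p 2.91e-08 and 5.71e-09). Irf1, an interferon-induced transcription factor, rose by 1.56 ± 0.21 (8.82e-06). Ifng itself and Socs1 were below the filter in all groups. Of 14 type I interferon targets, 2 rose and 2 fell, with Ifit2 at 0.97 ± 0.18 and Stat2 at -0.72 ± 0.12. All of these lists were chosen with earlier results of these data known, and the counts are descriptions beside the 37.5% and 27.2% of all genes.

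**Figure D5:**
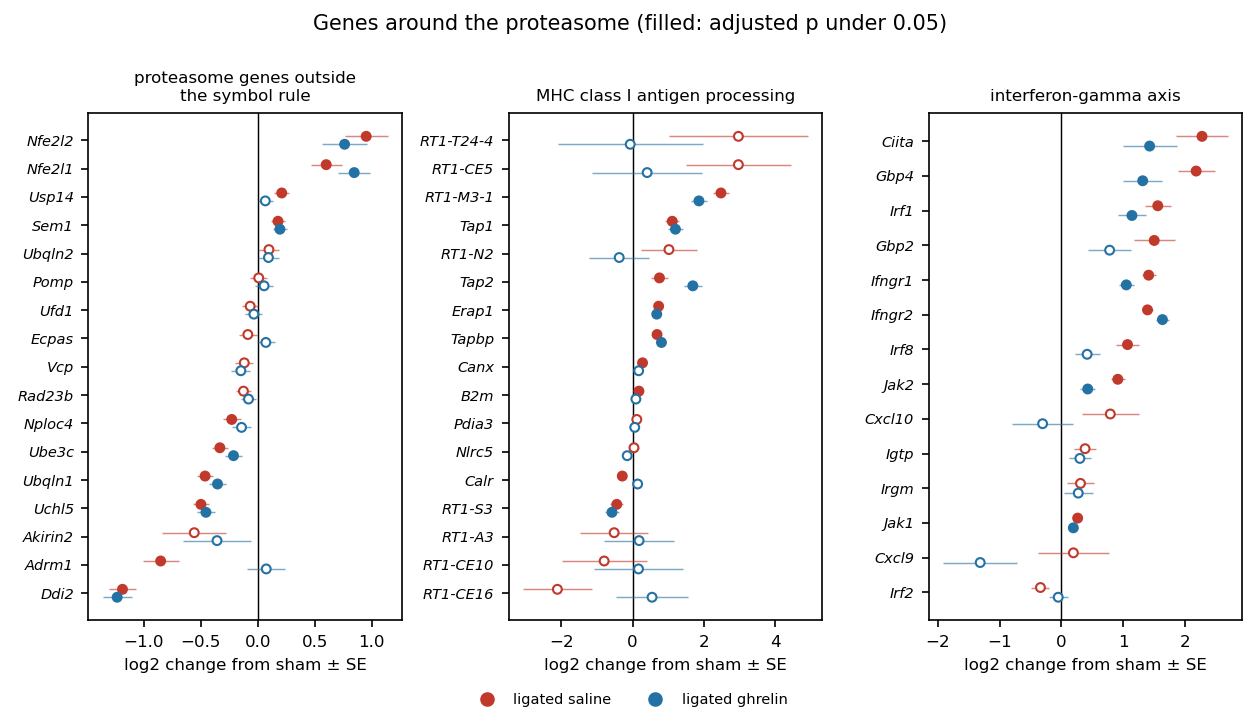
Log2 change from sham ± SE (horizontal axis) of 3 gene lists around the proteasome (vertical axis) in ligated saline and ligated ghrelin rats; filled points passed an adjusted p under 0.05 in limma, and the 2 colours share the sham rats. Ddi2 lies near -1.2 in both groups, Adrm1 is at -0.85 in ligated saline and 0.07 in ligated ghrelin, and the RT1 class I genes have the widest error bars.

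Markers of other cell types moved in the same arrays, where 37.5% of all genes rose and 27.2% fell with ligation. All 10 bile duct markers rose with ligation, by a median of 4.63 log2 units, with the chloride channel Cftr at 5.69 ± 0.24 and the secretin receptor Sctr at 6.49 ± 0.29. Among stellate cell and myofibroblast markers, 11 of 12 were called higher and the remaining 1 lower. The median change over the 12 was 2.87 log2 units (Rgs5 3.09 ± 0.15, Col3a1 2.50 ± 0.14). Of 13 hepatocyte markers 0 rose and 5 fell, and their summed intensity was 311261 to 335040 in sham and 263048 to 298626 in ligated saline. The male-biased Cyp2c11 changed by -7.77 ± 0.85 and the transcription factor Hnf4a by -0.79 ± 0.097. Of 7 endothelial markers 3 rose and 1 fell (Ramp2 1.21 ± 0.15, Kdr -0.82 ± 0.12), and both erythroid markers above the filter fell (Alas2 -2.99 ± 0.46, Hbb -1.17 ± 0.20). The part of cell composition in the proteasome changes was not tested.

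Ghrelin against saline in ligated rats gave no call on the brightest probe sets of the 45 genes (limma, lowest adjusted p 0.0916), while 2.34% of all genes were called, 1.76% higher and 0.585% lower. At an unadjusted p under 0.05 there were 9 of 45 genes, 7 higher and 2 lower. The median change was 0.09 log2 units (all genes 0.01), and 29 of the 45 changes were above 0. The groups did not overlap for 1 gene, or 2.22%, against 4.53% of all genes. This was the structural subunit Psmb3, at 11.22, 11.31 and 11.40 in ligated saline and 11.40, 11.45 and 11.56 in ligated ghrelin, named here after its values were seen (0.17 ± 0.066, limma adjusted p 0.150).

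The 4 genes with the lowest p included both constitutive catalytic subunits. Psmb5 was at 11.24, 11.30 and 11.51 in ligated ghrelin, above the ligated saline mean in 5 of 5 rats, with a change of 0.25 ± 0.080 (limma adjusted p 0.0916). With array medians set equal it was called (adjusted p 0.0429). Psmb7 was at 11.37, 11.48 and 11.65, with a change of 0.22 ± 0.081 (limma adjusted p 0.136). Psmd7 was at 10.34, 10.39 and 10.49, with a change of 0.22 ± 0.077 (0.111). These genes had fallen with ligation. The ligated saline rats enter both comparisons, so the opposite signs are not independent. Psma2 was at 11.28, 11.60 and 11.73 in ligated saline and 11.03, 11.24 and 11.41 in ligated ghrelin, with a change of -0.31 ± 0.10 (0.0964).

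No immune subunit or PA28 gene was called between the ligated groups. Psmb9 was at 11.56, 11.98 and 12.31 in ligated ghrelin and changed by -0.02 (95% interval -0.35 to 0.31, limma adjusted p 0.947). Psmb8 was at 11.62, 11.82 and 12.13 and changed by 0.05 (-0.22 to 0.32). Psmb10 was at 9.92, 10.01 and 10.26, all 5 rats above the ligated saline mean, and changed by 0.22 (-0.08 to 0.52). Psme1 changed by -0.02 (-0.15 to 0.12) and Psme2 by -0.09 (-0.31 to 0.13). A missed threshold does not show that these genes were the same in both groups.

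Within rats, Psmb8 minus Psmb5 was 0.22 to 0.85 in ligated ghrelin, a change of -0.20 log2 units from ligated saline (exact permutation p = 0.152, adjusted p 0.182 over 6 tests). Psmb10 minus Psmb7 was -1.63 to -1.33, a change of -0.0032 log2 units (exact permutation p = 0.987). Leukocyte marker sums were 3405 to 4926 in ligated ghrelin and macrophage marker sums 27322 to 39722, and none of these markers was called. Stellate markers gave 2 calls, both lower (Rgs5 -0.70 and Col3a1 -0.68).

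Around the proteasome, 1 of the 17 listed genes was called with ghrelin. Adrm1 was at 6.65, 7.01 and 7.29 in ligated saline and 7.53, 8.03 and 8.13 in ligated ghrelin, without overlap, and rose by 0.93 ± 0.17 (limma adjusted p 0.0193). In sham it was at 7.42, 7.91 and 8.38. The call was lost without the ligated ghrelin 2 rat (0.88, adjusted p 0.0586) or ligated ghrelin 5 (0.88, 0.0511). Of the MHC class I genes none was called as deposited. Tap2 changed by 0.94 ± 0.25 (adjusted p 0.0532) and was called after quantile normalization (0.0444). Of the interferon gamma genes Jak2, a receptor kinase, fell by 0.49 on the log2 scale (SE 0.12, adjusted p 0.0430), a call lost under quantile normalization (0.0504). The other 13 above the filter were not called, and the median change of the 14 was -0.45 (all genes 0.01). The summed intensity of the 16 on the array was 11641 to 18556 in ligated saline and 10591 to 12035 in ligated ghrelin. Adrm1 and Jak2 were picked out as the called genes of their lists.

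Against sham, the immune subunits and PA28 were higher in the ligated ghrelin rats as well. This comparison holds ligation and ghrelin together and shares its sham rats with the first, so the values are set side by side. Of the 45 genes 13 rose and 6 fell, and 26 were not called, where 35% of all genes rose and 21.2% fell (56.2% called). For 13 genes the groups did not overlap, or 28.9%, against 39% of all genes. The median change was 0.07 (all genes 0.09). Psmb9 rose by 1.11 ± 0.16 (1.14 in ligated saline), Psmb10 by 0.83 ± 0.14 (0.61), Psmb8 by 0.38 ± 0.13 (0.34), Psme1 by 0.34 ± 0.064 (0.35) and Psme2 by 0.51 ± 0.10 (0.60). The Psmb8 call was lost without ligated ghrelin 4 or 5 (adjusted p 0.0540 and 0.0539) and with array medians set equal (0.26, 0.0986).

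The constitutive catalytic subunits were not called against sham in ligated ghrelin rats, with changes of 0.05 ± 0.080 for Psmb5 (-0.20 in ligated saline) and -0.05 ± 0.081 for Psmb7 (-0.27). Psmd1 was at -0.05 ± 0.12 (-0.36) and Psmd7 at -0.11 ± 0.077 (-0.34), also not called. Of the chaperones and the inhibitor, 4 genes fell in both: Psmd9 by 0.75 on the log2 scale (0.84 in ligated saline), Psmd5 by 0.65 (0.78), Psmg1 by 0.56 (0.70) and Psmf1 by 0.45 (0.57), each without overlap with sham. Psmd10 was at -0.17 (limma adjusted p 0.120), Psmg2 at 0.08 and Psmg3 at 0.15, not called, and Psmg4 rose by 0.44 (0.00137). Psme4 fell by 0.33 on the log2 scale. Psmb4 rose by 0.29 ± 0.062 (limma adjusted p 0.000999), with 0.13 in ligated saline, and Psmc2 rose by 0.34 ± 0.074.

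Psmb10 minus Psmb7 rose by 0.88 log2 units against sham in ligated ghrelin rats, with all 5 rats above all sham rats (exact permutation p = 0.00216, adjusted p 0.00433). Psmb8 minus Psmb5 rose by 0.33 (exact permutation p = 0.0390, adjusted p 0.0584), which missed the threshold after adjustment. The latter was past it after quantile normalization (adjusted p 0.0487). Of the 11 fits with 1 rat left out, only that without ligated ghrelin 2 passed it (0.41, adjusted p 0.0143). Without ligated ghrelin 4 the rise was 0.25, and the highest adjusted p of these fits was 0.121.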

How the data were processed

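One Affymetrix Rat Genome 230 2.0 array was hybridized per rat. The authors deposited intensity values per probe set made with GCRMA, per the submitters' processing notes (its version and settings: not given in the sources used here). As deposited, intensities ran from 2.14 to 61840 on the linear scale and were converted to log2 without a pseudocount. With the settings unknown, how far a shift of most genes in 1 direction was removed is unknown as well.

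Of 31099 probe sets, 57 controls were left out. A probe set was kept when it exceeded the median of all values (15.5, or 3.95 log2) on at least 5 arrays, which left 15965. Genes came from the platform annotation, using probe sets with 1 gene symbol, and the brightest kept probe set stood for a gene. A model of 3 group means without covariates was fitted to all 17 arrays with limma 3.58.1 in R 4.3.3 (eBayes, 14 residual and 2.54 prior degrees of freedom), with Benjamini-Hochberg adjustment over all kept probe sets and calls at an adjusted p under 0.05. The fit was tested on simulated data. SE and 95% intervals are from this fit, and the number of arrays limits the precision. Differences within arrays were tested by exact two-sided permutation over rats, adjusted over 6 tests of the 9 planned.

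The members and lists were chosen with earlier results of these data known. Groups came from the sample labels, and rats are numbered within a group in order of deposit. The p-values set a group difference against the spread between these animals and take the rats as independent. Nothing given says whether rats shared a cage, litter or operation day, so that could not be checked. Full values are given for the catalytic subunits, Psme1, Psme2, Psme4, the 6 largest called changes in each direction with ligation and the 4 lowest p with ghrelin. Other genes named are the 2 called with the lowest p in each list, with Tap1, Tap2, B2m, Irf1, Nfe2l1, Pomp and Ptprc. Picked after seeing values were Psmb3, Nfe2l2, Adrm1, Jak2, RT1-T24-4 and the genes whose call depended on a setting. Alternatives were 2 other scalings, 2 other filters, averaged probe sets, another eBayes setting, fits of the groups compared alone, the list without interacting proteins, and each rat left out.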

Additional observations from a re-analysis of the deposited data

Results flagged for a closer look

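In 10 of 141 groups of values, 1 rat lay far from the others of its group, measured by the gap to its neighbour over the range of the group. Chance gives about 1 in 20. The sham 4 rat was lowest for Psmb8, at 11.18 against 11.49 in the next, and for Psma1, at 11.03. The sham 6 rat was highest for Psmb1, at 12.25, and for Psmb2, at 11.45, and lowest for Psme4, at 10.37. In ligated saline, rat 1 was highest for Psme3ip1 at 7.996, rat 2 lowest for Psmg3 at 7.09 and rat 6 highest for Psmf1 at 10.50. In ligated ghrelin, rat 3 was lowest for Psma3 at 9.43 and rat 4 highest for Psmc6 at 11.28. All values are log2 intensities.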

How the results depend on the processing

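Setting the array medians equal changed most. With it 5 proteasome genes rose and 21 fell with ligation (13 and 12 as deposited), 1 rose with ghrelin (Psmb5), and 7 rose in ligated ghrelin against sham (13 as deposited). Under it Psma1 turned to -0.017 and B2m to -0.0097 with ligation. Averaging the probe sets of a gene also gave 1 call with ghrelin, Psmd11. Psmb8 minus Psmb5 in ligated ghrelin against sham, 0.33 and not past the threshold as deposited, was past it after quantile normalization at 0.33 (exact permutation, adjusted p 0.0487), and ran from 0.25 to 0.41 with each rat left out.

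Of 25 ligation calls 11 held under all alternatives, and of 19 calls against sham in ligated ghrelin 12 did. With ghrelin, 43 of 45 genes stayed without a call throughout. With each rat left out, 11 to 14 genes rose and 9 to 12 fell with ligation, 0 were called with ghrelin, and 11 to 13 rose and 6 fell in ligated ghrelin against sham. Psmb8 minus Psmb5 and Psmb10 minus Psmb7 rose by 0.46 to 0.57 and 0.79 to 0.96 with ligation. No paired analysis was possible because the sample numbers are not shared between groups. The cause of the changes with scaling was not tested. Psmc3ip, below the filter, is limited by its signal.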
